A study of Danio rerio with 20 samples.

Results

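Zebrafish embryos depleted of the terminal uridylyltransferases TUT4 and TUT7 were compared, at 6 hours post fertilization (hpf), with control embryos of a younger age. The question was which transcripts of the knockdown stood at the level of a younger normal embryo, as a plain developmental delay would give, and which did not. The comparison took 4 of the 20 libraries of the series, picked out by morpholino, hour and set: the double knockdown (TUT47MO) at 6 hpf from the sets rs1a and rs1b, and control morpholino (ConMO) embryos at 4 hpf from rs1a and at 5 hpf from rs2. The 2 ConMO libraries at 6 hpf, from rs1a and rs1b, gave the age-matched difference.

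In the maternal-to-zygotic transition the embryo clears the mRNA that the mother stored in the egg and starts transcription of its own genome. TUT4 and TUT7 add uridines to the 3′ ends of RNA, and in vertebrate cells such tails mark mRNA with short poly(A) tails for decay. After genome activation the zebrafish embryo sorts its cells into an outer enveloping layer, a yolk syncytial layer and the germ layers, with a dorsal organizer, and begins to spread over the yolk (epiboly) and to gastrulate. Each step switches on known genes at known hours, so RNA levels can place an embryo on this time course.

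All embryos were of the AB strain and were injected at the 1-cell stage with about 1 nl of control morpholino or of translation-blocking morpholinos against TUT4 and TUT7 together, and raised at 28.5 °C. Embryos were staged by morphology, and the sources used here do not give whether the 6 hpf knockdown was collected by clock or by stage. They give neither embryo nor clutch numbers, and so the spread behind each p-value is that of these libraries and may be technical. Singly injected TUT7MO and TUT4MO embryos have 1 library each at 6 hpf in rs1a and share their controls with the double knockdown. They are quoted for a few genes and for the set above all controls.

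Depth in the 6 libraries ran from 11914213 to 32786712 reads in genes. Levels are given as CPM, a count relative to the library total, scaled by TMM (a trimmed mean of ratios between libraries), and differences as log2(CPM + 1), which understates the change of low genes. The younger controls differ in both set and hour, so set and hour cannot be told apart between them. They also stood far apart from each other: the median absolute log2 difference across 17671 genes was 0.791 between them, against 0.265 between the 2 knockdown libraries and 0.242 between the 2 controls at 6 hpf. Mitochondrial rRNA took 51.6% of reads in the rs1a knockdown, 48.0% in the rs1a control at 6 hpf, 14.4% in the 4 hpf control and 7.22% in the 5 hpf control, but 1.75% in the rs1b knockdown and 2.88% in its control. A block on translation need not change the mRNA, so the targets do not check the knockdown here: zcchc11 (TUT4) stood at 155 CPM in both knockdown libraries and ZCCHC6 (TUT7) at 261 and 252 CPM, against 113 and 150 and then 182 and 260 CPM in the 4 and 5 hpf controls. Of 6 measured genes of later muscle, blood and neural cells, tal1 reached the highest level in any of the 6 libraries, 5.41 CPM in the rs1b knockdown.

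Measured over all genes, both knockdown libraries lay nearest to the 4 hpf control. The median absolute log2 difference of the rs1a knockdown was 0.377 to the 4 hpf control, 0.637 to the 5 hpf control and 0.729 to its own control at 6 hpf. The rs1b knockdown gave 0.403, 0.666 and 0.775 in the same order. In the rs1a knockdown 88.7% of genes were within 2-fold of the 4 hpf control and 63.3% within 2-fold of the 6 hpf control of its set. Controls at 2 and 3 hpf lay between, at 0.417 to 0.560. At 3 hpf the distance differed by set: the rs1b knockdown was 0.417 from the rs1b and 0.560 from the rs2 control. For the rs1a knockdown these were 0.504 and 0.530. The 4 hpf control shares its set with the rs1a knockdown, and the 5 hpf control, of rs2, with neither. The nearest control depended on the scaling for 1 library: with library totals alone the rs1a knockdown lay nearest to the 5 hpf control.

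**Figure D1:**
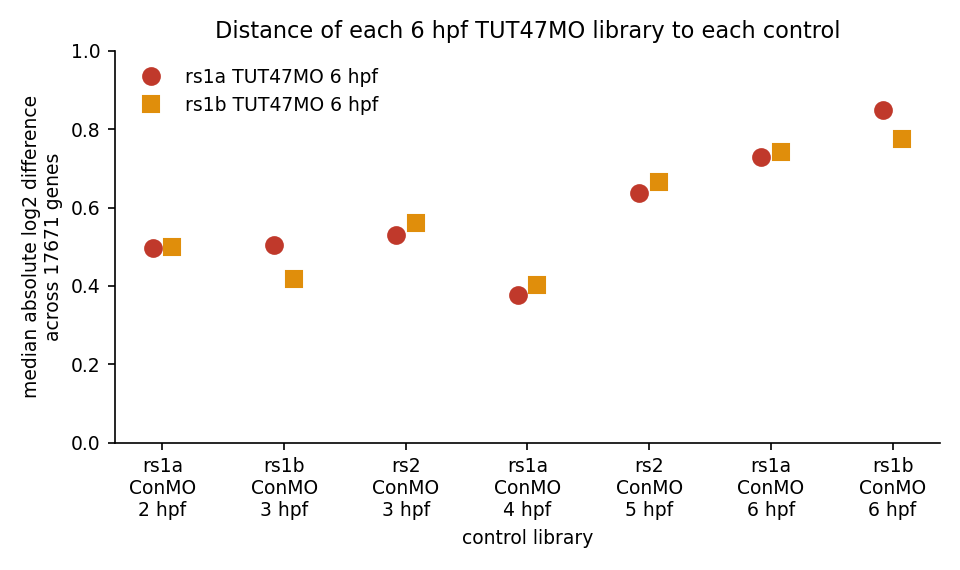
Distance of each 6 hpf TUT47MO library (red circles rs1a, orange squares rs1b) to each of the 7 ConMO libraries, as the median absolute difference in log2(CPM + 1) across 17671 genes. The lowest points are those to the 4 hpf control, 0.377 and 0.403, and the highest those to the 6 hpf controls, 0.729 to 0.848.

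Maternal clearance and zygotic activation had both passed the 4 hpf control and not reached the 5 hpf control. With classes taken from the rs1b controls at 3 and 6 hpf, whose own class medians follow from that choice, the median of 3654 cleared maternal genes fell from the 4 hpf to the 5 hpf control by 1.26 (log2). The knockdown libraries were at −0.40 (rs1a) and −0.37 (rs1b), which is 32.0% and 29.1% of that step. The median of 1210 zygotic genes was 2.41 above the 4 hpf control at 5 hpf and 2.94 and 3.16 above it at 6 hpf. In the knockdown it was 0.73 and 0.87 above, or 30.4% and 36.2% of the step from 4 to 5 hpf. The median of stable maternal genes was within 0.1 of the 4 hpf control in the 2 knockdown libraries and in the controls that did not define the class. These are descriptions over genes, with no test. Classes were also taken from rs1b and rs2 controls for the 4 hpf comparison and from rs1a controls for the 5 hpf comparison. These sets lie outside the comparison only for the rs1a knockdown against 4 hpf and the rs1b knockdown against 5 hpf. In the rs1a and rs1b knockdown the cleared medians were then −0.45 and −0.42 against the 4 hpf control. Against the 5 hpf control they were 0.85 and 0.89. The zygotic medians were 0.79 and 0.94, then −1.66 and −1.58, in the same order, so the younger control decides the sign. The size of the zygotic medians also depends on the pseudocount. For the rs1a knockdown against 4 hpf it was 1.59 with a pseudocount of 0.1 and 0.295 with 5. The cleared median moved little, to −0.47 and −0.44. The percentages of the step were taken with a pseudocount of 1 only.

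**Figure D2:**
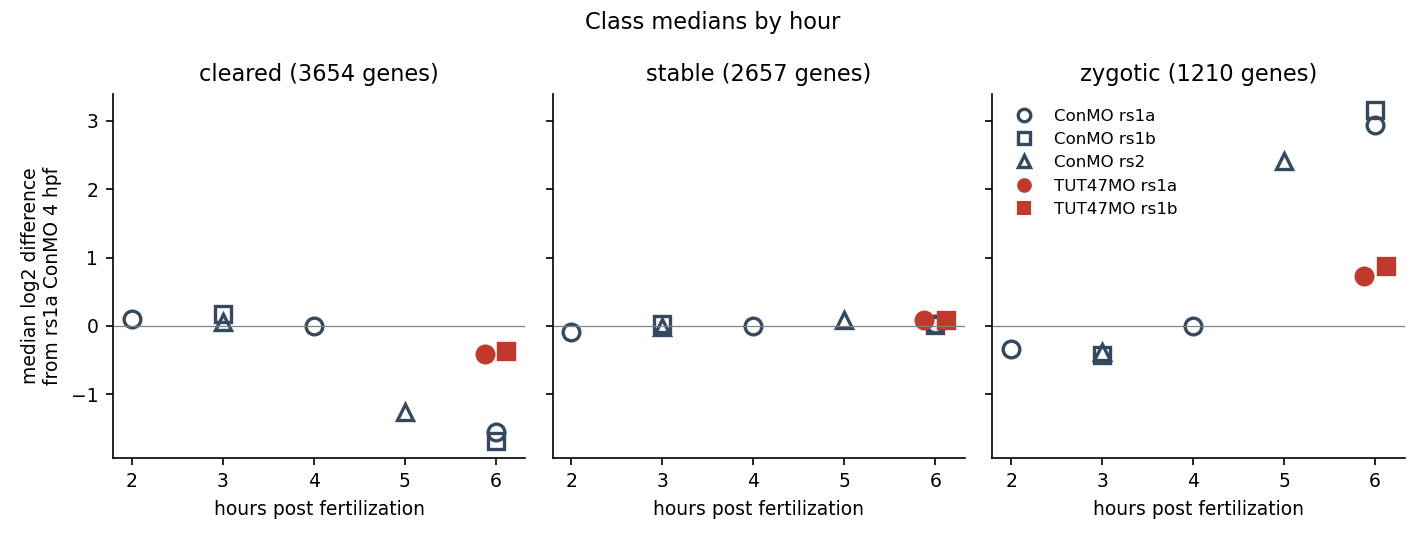
Median difference in log2(CPM + 1) from the 4 hpf ConMO library for cleared, stable and zygotic genes against hours post fertilization. Open symbols are ConMO and filled red symbols the 2 TUT47MO libraries at 6 hpf, set slightly apart. The knockdown medians of cleared genes, −0.40 and −0.37, and of zygotic genes, 0.73 and 0.87, lie between those of the 4 and 5 hpf controls.

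Genes chosen in one set were then placed in the other. Of 3425 genes that were at least 2-fold higher in the rs1b knockdown than in its control at 6 hpf, 3049 (89.0%) were within 2-fold of the 4 hpf control in the rs1a knockdown, as were 88.7% of all genes. Of 3481 that were at least 2-fold lower, 2826 (81.2%) were, and 557 of the others lay above it, the side toward the older embryo. Against the 5 hpf control, with genes chosen in rs1a and placed in the rs1b knockdown, 1606 of 3127 (51.4%) of the higher and 1209 of 3354 (36.1%) of the lower genes were within 2-fold, against 68.6% of all genes. Of the lower genes 2112 were still below the 5 hpf control.

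Gene by gene, limma on the 3 groups of 2 called no gene different between the knockdown and the younger controls at an adjusted p under 0.05, and the smallest adjusted p was 0.302. At an unadjusted p under 0.05, 519 genes (2.94%) were higher and 280 (1.58%) lower. The quasi-likelihood test of edgeR also gave 0 and 0, and DESeq2 gave 58 and 12. The same limma fit called none between the knockdown and the 6 hpf controls (2868 higher and 2779 lower at unadjusted p under 0.05). A separate fit of the 2 groups at 6 hpf alone, with the set that they share as a replicate block, called 6514 higher and 5803 lower. That block fit rests on 2 pairs and leaves very few residual degrees of freedom. The fit of 6 libraries called none within 2-fold of the younger controls either, although 6072 (34.4%) passed that equivalence test unadjusted. Between the 6 hpf and the younger controls that fit called none either (9.76% higher and 9.34% lower unadjusted). A fit over all 14 ConMO and TUT47MO libraries, with 8 residual degrees of freedom in place of 3, called 189 genes (1.07%) higher and 15 (0.0849%) lower than the younger controls (5.18% and 3.89% unadjusted), and 2900 (16.4%) higher and 2829 (16%) lower than the 6 hpf controls. With the set as a replicate block as well, added after seeing the data, the 14 libraries gave 245 higher and 83 lower than the younger controls. Without the block they placed 4074 genes (23.1%) within 2-fold of the younger controls. Of the 5729 genes that differed from the age-matched controls, 987 (17.2%, or 5.59% of all tested) were within 2-fold of the younger ones, 155 (2.71%) differed from them and 4587 (80.1%) could be called neither. Both contrasts share the knockdown libraries. For the 6 hpf against the younger controls the fit without the block called 6.5% of genes higher and 6.23% lower. With 2 libraries a side, an exact two-sided permutation test of a gene cannot go below 0.33.

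The spread that limited this test was that between the 4 and 5 hpf controls. Each of them was therefore also set alone against the knockdown, in fits of 5 libraries with 2 residual degrees of freedom, in which the lone control is assumed to vary like the other groups. Against the 4 hpf control, limma called 599 genes (3.39%) higher and 137 (0.775%) lower, and found 5759 (32.6%) within 2-fold (57.3% unadjusted). Against the 5 hpf control it called 2706 (15.3%) higher and 3140 (17.8%) lower and found 0 within 2-fold (6313, or 35.7%, at unadjusted p under 0.05). For 317 genes (1.79%) the calls were opposite, so that the knockdown lay between the controls. For 115 genes (0.651%) it lay above both and for 19 (0.108%) below both. A total of 1916 genes (10.8%) differed from the 5 hpf control and were within 2-fold of the 4 hpf control. Both fits share the knockdown and 6 hpf control libraries, and adjusted p-values quoted below for the 4 or the 5 hpf control come from them.

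Maternal-effect and egg genes, whose products the mother lays into the egg, had a median nearer to the 4 than to the 5 hpf control. Over 37 measured, their median log2 difference from the 4 hpf control was −0.17 (rs1a) and −0.37 (rs1b), so the median had moved past that control toward clearance. From the 5 hpf control it was 0.58 and 0.63. zar1l, an oocyte RNA-binding protein, stood at 135 and 151 CPM in the knockdown, 137 CPM in the 4 hpf, 39.4 CPM in the 5 hpf and 18.9 and 19.7 CPM in the 6 hpf controls. It was within 2-fold of the 4 hpf control (equivalence adjusted p = 0.0463) and 1.83 ± 0.22 (log2, SE) above the 5 hpf control (adjusted p = 0.00263, limma). cpeb1b, which regulates cytoplasmic polyadenylation, stood at 95.0 and 110 CPM, with 95.1 CPM at 4 hpf and 31.9 CPM at 5 hpf. The knockdown values of both genes surround or nearly equal the 4 hpf value and lie well above all older controls. They are examples, and the rule for named genes took npm2b, ccnb1, org and birc5b of this list instead. npm2b stood at 26.3 and 30.7 CPM, below 59.6, 46.6 and then 39.9 and 54.9 CPM at 4, 5 and 6 hpf. ccnb1 stood at 840 and 785 CPM, against 1309, 1285 and then 860 and 777 CPM. org stood at 37.2 and 38.8 CPM, against 90.8, 47.3 and then 13.1 and 11.3 CPM.

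Clearance was further along for the maternal genes btg4 and birc5b. btg4, an adaptor of the CCR4-NOT deadenylase that acts in maternal mRNA clearance in mouse oocytes, stood at 63.9 and 63.4 CPM, against 213 CPM at 4 hpf, 34.1 CPM at 5 hpf, then 9.93 and 9.87 CPM at 6 hpf. It was lower than the 4 hpf control (−1.73 ± 0.21, adjusted p = 0.00962, limma) and higher than the 5 hpf control (0.88 ± 0.23, adjusted p = 0.0263, limma), so both libraries lay between them. birc5b, a chromosomal passenger protein, had fallen further, from 28.4 CPM at 4 hpf to 5.25 and 5.57 CPM, below the 7.28 CPM of the 5 hpf control and above the 2.71 and 3.20 CPM at 6 hpf. Its difference from the 5 hpf control did not pass (−0.37 ± 0.28, adjusted p = 0.345, limma). pou5f3, an activator of the zygotic genome whose mRNA is both maternal and zygotic, was instead higher in the 5 than in the 4 hpf control. It stood at 613 and 419 CPM against 331 CPM at 4 hpf and 1541 CPM at 5 hpf.

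Germ plasm genes mark the future germ cells. Of 16 measured, 8 were within 2-fold of the 4 hpf control (32.6% over all genes), 1 was lower, and 3 were higher than the 5 hpf control, near the 15.3% over all genes. tdrd1, a Tudor-domain protein of the piRNA pathway, stood at 135 and 139 CPM between 207 CPM at 4 hpf and 39.5 CPM at 5 hpf, and was 1.77 ± 0.26 above the latter (adjusted p = 0.00455, limma). ddx4 (vasa), the helicase of germ cells, ranged over 152 and 195 CPM in the knockdown and 168 to 209 CPM in the 4, 5 and 6 hpf controls, and separated none of these groups. In whole embryos, fewer cells of a type and less RNA per cell cannot be told apart, here and for the lineages below.

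Cleared genes that fell at least 4-fold from the 4 to the 5 hpf control numbered 586. Of these, 369 (63.0%) were above the 4 hpf control or less than 2-fold below it in both knockdown libraries. A further 24 were below the 5 hpf control or less than 2-fold above it in both, and 193 (32.9%) in neither range. Zygotic genes that rose at least 4-fold over the same hours numbered 744. Of these, 291 (39.1%) stood at the 4 hpf level, that is below that control or less than 2-fold above it in both libraries. Another 72 (9.68%) stood at the 5 hpf level, above that control or less than 2-fold below it, and 381 (51.2%) in neither range. Placing the 4 hpf control at 0% and the 5 hpf control at 100% on the log2 scale, the median position was 29.4% for the cleared genes (quartiles 18.0 and 40.6%) and 31.5% for the zygotic genes (18.0 and 49.8%). Single zygotic genes thus stood anywhere from the 4 hpf to the 5 hpf level. The 2-fold width of the ranges is fixed, so they depend in part on the size of a gene's step. With 26.7 and 33.9% of its step, snai1b counted as at the 4 hpf level. With 24.7 and 32.6% of a larger step, chd counted in neither range. The genes named next as examples of each range were chosen after their values were seen.

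Organizer genes included several at the level of the older controls. The dorsal organizer patterns the axis by secreting antagonists of BMP and Wnt ligands, and Nodal ligands induce it. Of 15 measured Nodal and organizer genes, 8 were higher than the 4 hpf control and 8 lower than the 5 hpf control (3.39% and 17.8% over all genes). dkk1b, a Wnt antagonist, stood at 33.9 and 34.4 CPM in the knockdown, 1.74 CPM at 4 hpf, 34.8 CPM at 5 hpf, then 36.2 and 36.5 CPM at 6 hpf. It was 3.68 ± 0.23 above the 4 hpf control (adjusted p = 0.00105, limma) and differed from the 5 hpf control by −0.03 ± 0.22 (adjusted p = 0.938, limma). noto, which specifies the notochord, stood at 97.1 and 130 CPM, against 17.4, 111 and then 83.6 and 87.9 CPM at 4, 5 and 6 hpf. foxa2, a factor of axial mesoderm and floor plate, stood at 15.4 and 11.4 CPM. Its controls had 0.673, 15.2 and then 18.5 and 24.7 CPM at 4, 5 and 6 hpf. The 3 genes overlapped or adjoined the 5 hpf control and were far above the 4 hpf control. dkk1b and noto also adjoined the 6 hpf controls, while foxa2 was below both of them in both libraries.

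Other organizer genes in the same libraries lay between the younger controls. chd, which encodes the BMP antagonist Chordin, stood at 12.0 and 17.2 CPM, with 3.53 CPM at 4 hpf, 324 CPM at 5 hpf, then 224 and 276 CPM at 6 hpf. It was 4.40 ± 0.28 below the 5 hpf control (adjusted p = 0.000985, limma). sebox, a homeobox gene induced by Nodal, stood at 6.60 and 8.33 CPM against 109 CPM at 5 hpf. The Nodal ligand ndr2 stood at 4.77 and 6.06 CPM against 1.46 CPM at 4 hpf and 25.1 CPM at 5 hpf, and gsc, an organizer repressor, at 44.4 and 46.3 CPM between 10.2 and 90.1 CPM. dkk1b and chd, which differed by at most 2-fold from their 5 hpf level at 6 hpf in controls, thus stood at different points of the step from 4 to 5 hpf in the knockdown, dkk1b at its end and chd at 24.7% (rs1a) and 32.6% (rs1b) of it.

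Most endoderm genes lay between the younger controls. The cascade runs from the Nodal targets mixl1, gata5 and sox32 to sox17. Of 9 measured, 6 were higher than the 4 hpf control and 8 lower than the 5 hpf control (3.39% and 17.8% over all genes). sox32 stood at 21.7 and 21.8 CPM, against 0.561 CPM at 4 hpf, 68.5 CPM at 5 hpf, then 138 and 152 CPM at 6 hpf. It was 3.87 ± 0.23 above the 4 hpf control (adjusted p = 0.000994, limma) and 1.61 ± 0.21 below the 5 hpf control (adjusted p = 0.00333, limma). gata6 reached 13.9 and 10.7 CPM of 146 CPM at 5 hpf, while foxa3 reached 164 and 94.1 CPM of 255 CPM. sox17, the last of the cascade, stood at 2.15 and 0.973 CPM, against 0.841 CPM at 4 hpf and 7.46 CPM at 5 hpf, and was 1.76 ± 0.44 below the latter (adjusted p = 0.0246, limma).

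Mesoderm and posterior genes held the widest range. Of 32 measured, 12 were higher and 1 lower than the 4 hpf control, 3 were within 2-fold of it, and 2 were higher and 19 lower than the 5 hpf control. Over all genes these shares were 3.39%, 0.775%, 32.6%, 15.3% and 17.8%. The T-box genes, which specify mesoderm, differed within the family. ta (no tail, Brachyury) stood at 121 and 112 CPM, 4.51 ± 0.20 above its 4.15 CPM at 4 hpf (adjusted p = 0.000629, limma) and 1.85 ± 0.20 below its 423 CPM at 5 hpf (adjusted p = 0.00204, limma). tbx16, needed for paraxial mesoderm cells to migrate, stood at 58.2 and 54.1 CPM against 15.8, 591 and then 1453 and 1308 CPM at 4, 5 and 6 hpf. tb, the paralogue of ta, stood at 0 and 0.108 CPM, against 0.0559 CPM at 4 hpf, 3.92 CPM at 5 hpf, then 20.3 and 26.8 CPM at 6 hpf. On the scale from 4 to 5 hpf these are 71.7% for ta in the rs1a knockdown and, for rs1a and rs1b in turn, 35.4 and 33.4% for tbx16 and −3.53 and 3.14% for tb.

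Genes of presomitic mesoderm, picked from the same list after their values were seen, ranged from the 4 to the 5 hpf level. mespab, a segmentation factor, stood at 0.557 and 0.487 CPM, against 0.0559 CPM at 4 hpf, 16.8 CPM at 5 hpf, then 63.0 and 80.0 CPM at 6 hpf. It was 3.55 ± 0.28 below the 5 hpf control (adjusted p = 0.00115, limma). her1, of the segmentation clock, stood at 1.11 and 0.703 CPM against 26.8 CPM at 5 hpf, and wnt3a, a posterior Wnt ligand, at 0.159 and 0.162 CPM against 6.58 CPM. sp5l, a Wnt target of the posterior mesoderm, stood instead at 56.8 and 45.8 CPM of 91.5 CPM, 84.0 and 76.8% of the way to the 5 hpf control. ripply1, a repressor that acts in segmentation, was at 83.5 and 125% of that step. The Delta ligands dlc and dld were at 32.1 and 61.4% and at 38.5 and 49.3%, and the protocadherin pcdh8 at 39.4 and 45.0%.

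**Figure D3:**
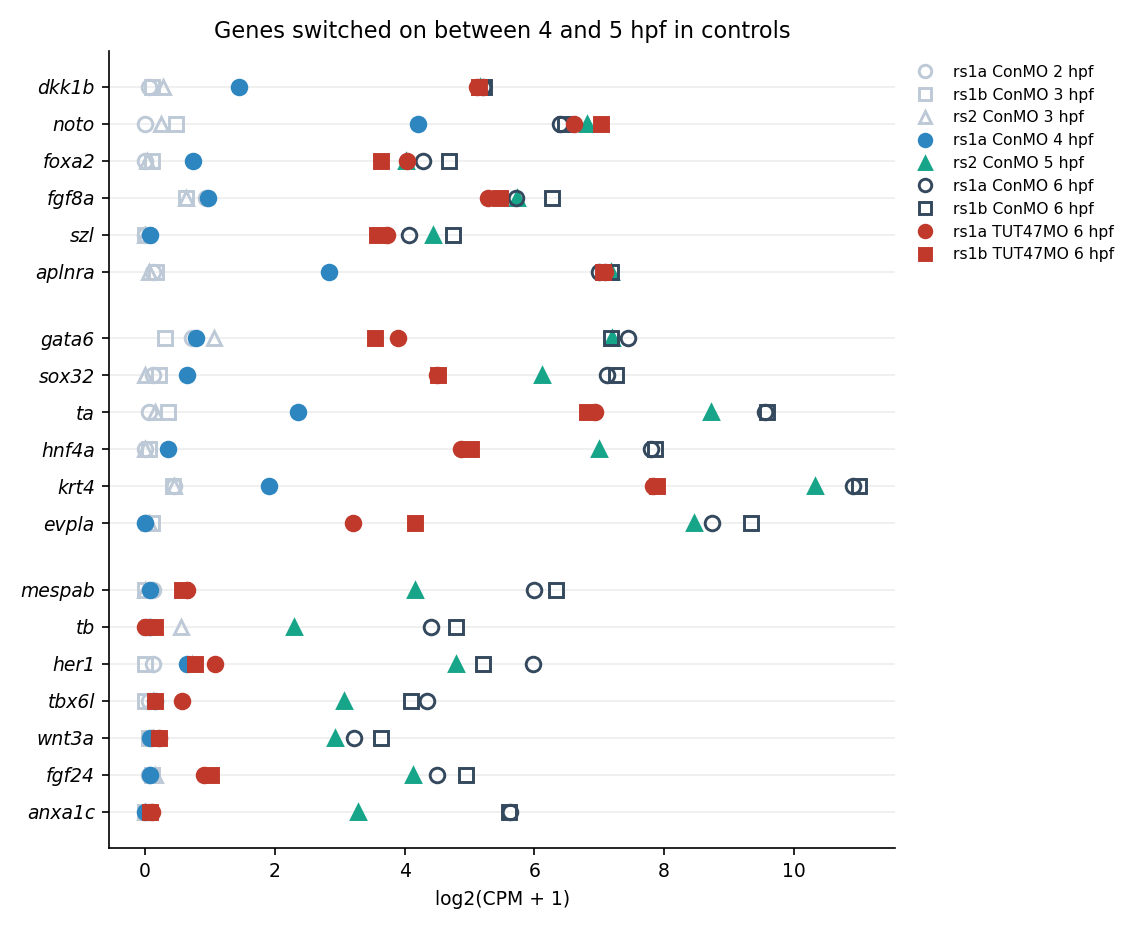
log2(CPM + 1) of 19 zygotic genes in the 7 ConMO libraries and the 2 TUT47MO libraries at 6 hpf (red, circle rs1a and square rs1b), in blocks at the 5 hpf level, between the younger controls and at the 4 hpf level. The genes were chosen after their values were seen. The red symbols of dkk1b coincide with the 5 hpf control, those of ta lie between, and those of tb coincide with the 4 hpf control.

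BMP and FGF genes were mostly between. BMP ligands pattern the ventral side, and Ved and Vent are repressors they induce. The median log2 difference of 16 measured genes of this group from the 4 hpf control was 1.76 (rs1a) and 1.67 (rs1b). From the 5 hpf control it was −1.25 and −1.4. bmp7a stood at 28.6 and 24.3 CPM between 6.17 and 170 CPM, and ved at 15.5 and 14.2 CPM between 3.29 and 318 CPM. Members above the 5 hpf control, chosen after their values were seen, included 2 inhibitors of differentiation. id3 stood at 94.3 and 116 CPM, against 7.85 CPM at 4 hpf, 23.3 CPM at 5 hpf, then 54.7 and 67.6 CPM at 6 hpf. It was 2.12 (log2) above the 5 hpf control. id2a stood at 54.9 and 55.5 CPM, against 25.7, 15.6 and then 34.0 and 31.5 CPM. Both Id genes were above every one of these controls in both libraries. At 2 and 3 hpf, however, controls held 40.9, 40.5 and 82.9 CPM of id2a, so id2a, unlike id3, was not above all 7 controls. The median of 13 FGF ligands and feedback targets was 1.63 and 1.45 against the 4 hpf control and −1.57 and −1.49 against the 5 hpf control. fgf8a stood at 38.2 and 43.5 CPM of 52.4 CPM at 5 hpf, the feedback inhibitor spry4 at 8.99 and 10.4 CPM of 28.7 CPM, and fgf24 at 0.875 and 1.03 CPM of 16.5 CPM.

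The enveloping layer and the yolk syncytial layer are the first tissues to differentiate. The median log2 difference of 33 ectoderm and enveloping layer genes from the 4 hpf control was 1.83 (rs1a) and 1.9 (rs1b). From the 5 hpf control it was −2.25 and −2.22. krt4, an enveloping layer keratin, stood at 226 and 236 CPM, against 2.75 CPM at 4 hpf, 1293 CPM at 5 hpf, then 1937 and 2068 CPM at 6 hpf. It was 5.95 ± 0.20 above the 4 hpf control (adjusted p = 0.00039, limma) and 2.48 ± 0.21 below the 5 hpf control (adjusted p = 0.00124, limma). evpla, an envoplakin of the cell cortex, was listed at 0 at 4 hpf and stood at 8.19 and 16.9 CPM of 351 CPM at 5 hpf. grhl1, a regulator of this epithelium, stood at 2.94 and 3.62 CPM of 40.4 CPM at 5 hpf, and anxa1c at 0.0794 and 0.0541 CPM of 8.77 CPM. All 4 were below the 5 hpf control in both libraries, with krt4 furthest on and anxa1c still at the 4 hpf level. Members above the 5 hpf control, chosen after their values were seen, included epcam, an adhesion protein with maternal mRNA, at 620.5 and 625 CPM against 311 CPM. Others were dlx3b, of the neural plate border, at 5.73 and 4.87 CPM against 1.35 CPM, and agr2, at 2.55 and 1.14 CPM against a listed 0.

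For 12 yolk syncytial layer genes the median log2 difference from the 4 hpf control was 1.75 (rs1a) and 1.72 (rs1b). From the 5 hpf control it was −1.36 and −1.43. hnf4a, a nuclear receptor of this layer, stood at 28.4 and 31.5 CPM between 0.280 and 127 CPM, 4.59 ± 0.22 above the 4 hpf control (adjusted p = 0.000728, limma) and 2.05 ± 0.21 below the 5 hpf control (adjusted p = 0.00174, limma). mxtx2, the homeobox gene that sets up the layer, had its highest control level at 5 hpf. In the knockdown it stood at 196 and 166 CPM, against 40.2 CPM at 4 hpf, 147 CPM at 5 hpf, then 70.4 and 48.3 CPM at 6 hpf. Its difference from the 5 hpf control did not pass (0.29 ± 0.28, adjusted p = 0.455, limma).

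The list of early zygotic genes, 37 in number, holds genes transcribed early in the embryo, but not all were on by 4 hpf. In the 4 hpf control sox32 stood at 0.561 CPM and foxa3 at 2.58 CPM, against 68.5 and 255 CPM at 5 hpf. The median log2 difference of the 37 genes was 1.86 (rs1a) and 1.91 (rs1b) from the 4 hpf control, and −1.24 and −1.27 from the 5 hpf control. aplnra, a receptor for the peptide Apela in mesendoderm migration, stood at 135 and 132 CPM, level with 145 CPM at 5 hpf, then 127 and 145 CPM at 6 hpf, from 6.11 CPM at 4 hpf. Its paralogue aplnrb went far past them, as given below. hspb1, a small heat shock protein transcribed early in the embryo, stood at 94.1 and 86.2 CPM, against 22.3, 1111 and then 1434 and 1507 CPM at 4, 5 and 6 hpf, and was 3.61 ± 0.20 below the 5 hpf control (adjusted p = 0.000866, limma).

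**Figure D4:**
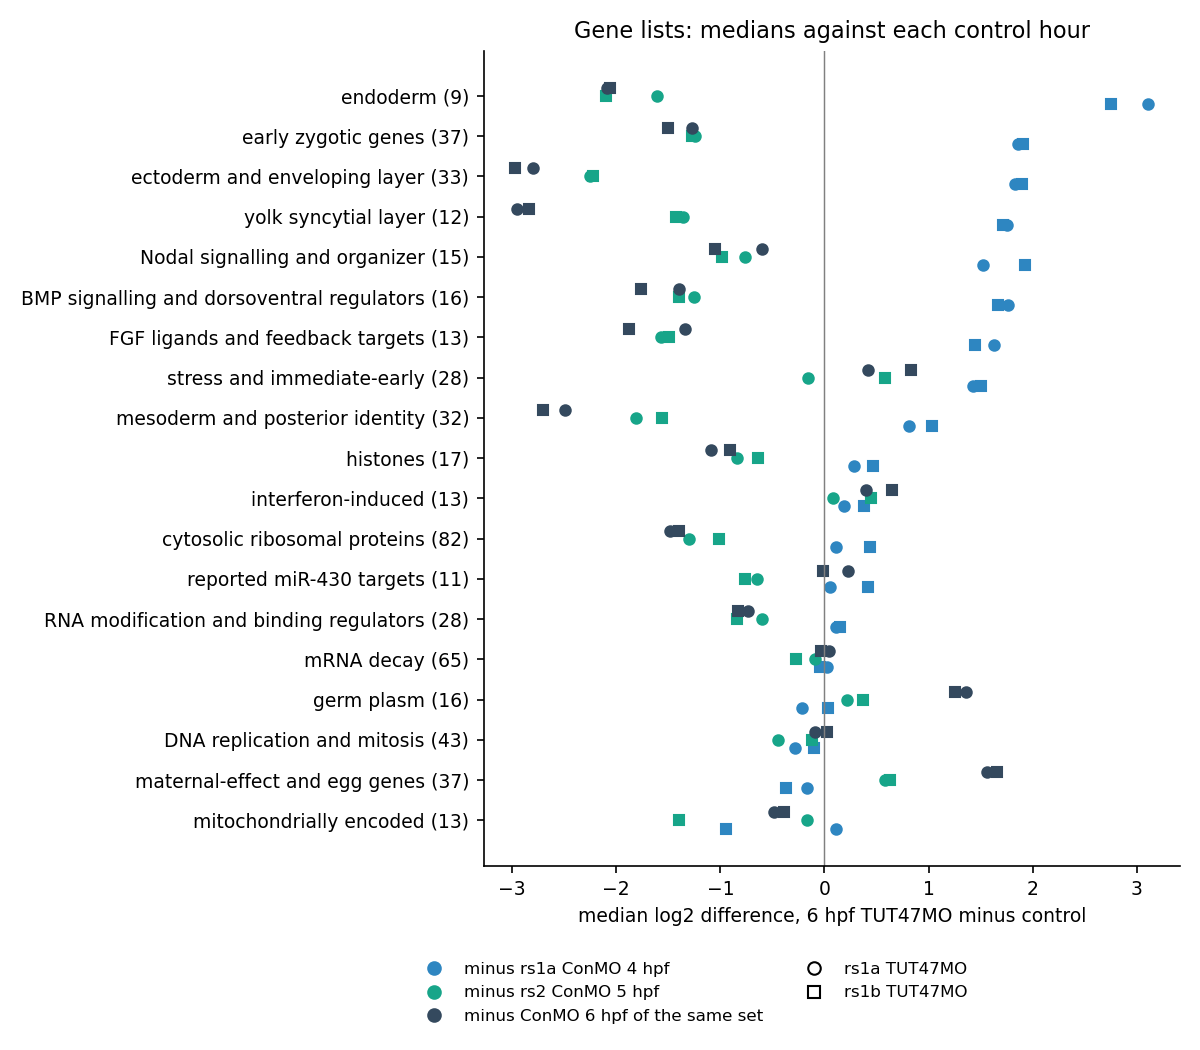
Median difference in log2(CPM + 1) of each gene list, the number of tested genes in brackets, between each 6 hpf TUT47MO library (circle rs1a, square rs1b) and the 4 hpf control (blue), the 5 hpf control (green) and the 6 hpf control of its set (dark). The organizer, endoderm, mesoderm, BMP, FGF, ectoderm and yolk syncytial layer lists lie to the right of 0 against 4 hpf and to the left against 5 and 6 hpf. The germ plasm list lies to the right against 5 hpf (0.22 and 0.37) and 6 hpf (1.36 and 1.25).

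Housekeeping groups and reported miR-430 targets are set beside the shares over all genes. These were 32.6% within 2-fold of the 4 hpf control and 15.3% higher and 17.8% lower than the 5 hpf control. Of 82 cytosolic ribosomal protein genes, which encode parts of the ribosome, 48 were within 2-fold of the 4 hpf control by the limma test and 60 were lower than the 5 hpf control. rplp0 stood at 64.8 and 83.2 CPM, against 90.4 CPM at 4 hpf, 410 CPM at 5 hpf, then 352 and 415 CPM at 6 hpf, 2.47 ± 0.24 below the 5 hpf control (adjusted p = 0.00165, limma). Among 43 genes of DNA replication and mitosis, 17 were within 2-fold of the 4 hpf control and 11 lower than the 5 hpf control. Subunit genes of the replicative helicase were among the latter: mcm3 stood at 12.4 and 18.4 CPM, against 4.99 CPM at 4 hpf and 254 CPM at 5 hpf, and mcm6 at 8.71 and 15.5 CPM, against 2.78 and 127 CPM. The 4 members above the 5 hpf control were gins2 and the origin recognition genes orc1, orc3 and orc6. Of 65 mRNA decay genes 28 were within 2-fold of the 4 hpf control, and 7 were higher and 10 lower than the 5 hpf control. Of 28 RNA modification and binding regulators 12 were lower than the 5 hpf control, with ptbp1a, a splicing regulator, at 17.2 and 17.1 CPM between 11.2 and 318 CPM. Reported targets of miR-430, the microRNA that clears many maternal mRNAs, numbered 11. Of these, 4 were within 2-fold of the 4 hpf control and 2 higher than it (3.39% over all genes). Against the 5 hpf control 2 were higher and 5 lower. The list mixes classes: cd82b was a cleared gene, and ndr2, lft1 and cxcl12a were zygotic. Of 13 mitochondrially encoded genes 4 were within 2-fold of the 4 hpf control. The counts of mRNA decay, miR-430 target, mitochondrial and replication genes within 2-fold are near or not far above the share over all genes. That of ribosomal protein genes is above it. Also above the share are the counts of ribosomal, RNA regulator, histone and miR-430 target genes lower than the 5 hpf control. Of 17 histone genes, many with near-identical copies, 3 were higher than the 4 hpf control, 4 within 2-fold of it, and 2 higher and 8 lower than the 5 hpf control.

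A small set of genes lay well outside the range of the controls of all hours. Both knockdown libraries were at least 2-fold above the highest of all 7 controls, on the log2(CPM + 1) scale, for 59 genes (0.334% of those tested) and at least 2-fold below the lowest for 9 (0.0509%). The fit over 14 libraries called 52 of the 59 higher and 4 of the 9 lower than the younger controls. Those calls use the knockdown and control values that chose the genes, so they are no independent test of them. The set of 59 and 9 genes was counted after the data were seen. Without regard to the other hours, 481 genes (2.72%) were higher in both knockdown libraries than in both younger controls, with group means at least 2-fold apart. By the same rule 387 (2.19%) were lower.

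The first of the genes above the younger controls named by rule were cdkn1a, bbc3 and gadd45aa. cdkn1a, the cell cycle inhibitor p21, stood at 41.8 and 55.0 CPM in the knockdown. The controls had 3.70 CPM at 4 hpf, 3.92 CPM at 5 hpf, then 6.14 and 5.58 CPM at 6 hpf, so no control came near. Its difference from the younger controls was 3.35 ± 0.37 in the fit of 6 libraries (adjusted p = 0.302, limma) and passed in the fit of 14 (adjusted p = 0.00125, limma). It was 58.8 CPM in TUT7MO and 5.88 CPM in TUT4MO at 6 hpf.

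bbc3 (puma), a killer of the Bcl-2 family, stood at 47.3 and 42.8 CPM, against 5.55 CPM at 4 hpf, 4.15 CPM at 5 hpf, then 8.24 and 7.95 CPM at 6 hpf. The difference was 2.98 ± 0.36 in the fit of 6 (adjusted p = 0.302, limma) and passed in the fit of 14 libraries (adjusted p = 0.0223). gadd45aa, a growth arrest gene, stood at 20.8 and 29.3 CPM against 2.75 to 4.69 CPM in these controls, a difference of 2.76 ± 0.40 (adjusted p = 0.302 in the fit of 6 and 0.000563 in the fit of 14 libraries, limma). sesn1, a sestrin, and pmaip1 were named after their values were seen. sesn1 stood at 85.0 and 92.9 CPM against 15.7 to 35.6 CPM at 4 to 6 hpf. pmaip1 (noxa) stood at 9.47 and 11.5 CPM, above 1.63 CPM in both younger controls but less than 2-fold above the 7.40 and 7.13 CPM at 6 hpf.

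Of 28 stress and immediate-early genes, 13 were higher than the 4 hpf control (3.39% over all genes). Against the 5 hpf control 7 were higher and 5 lower (15.3% and 17.8% over all genes, so the latter is at the background). fosab, an immediate-early transcription factor, stood at 33.1 and 13.5 CPM, against 1.35 CPM at 4 hpf, 4.52 CPM at 5 hpf, then 3.79 and 1.19 CPM at 6 hpf. ddit3 (chop), of the unfolded protein response, stood at 6.68 and 9.46 CPM against 0.617 and 1.35 CPM in the younger and 4.93 and 4.75 CPM in the 6 hpf controls. Both endoplasmic reticulum chaperone genes of the list, hspa5 and hsp90b1, were higher than the 5 hpf control. hsp90b1 stood at 827 and 1010 CPM against 805 CPM at 4 hpf and 292 CPM at 5 hpf, and was within 2-fold of the former (equivalence adjusted p = 0.0463, limma). Inducible hsp70.3 stood at 135 and 144 CPM, against 9.64 CPM at 4 hpf, 195 CPM at 5 hpf, then 28.6 and 55.7 CPM at 6 hpf. Of 13 interferon-induced genes 2 were higher than the 4 and 2 higher than the 5 hpf control, and irf7 was the member above all controls, at 14.3 and 11.9 CPM against 1.55 to 2.81 CPM at 4 to 6 hpf.

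The rule for named genes took the lowest p-values of the fit of 6 libraries, since none passed adjustment, and gave 10 in each direction. Besides cdkn1a, bbc3 and gadd45aa, those above were angptl4, bcl3, hist2h2l, NUPR2, irx7, aplnrb and dlb. angptl4, a secreted inhibitor of lipoprotein lipase, stood at 25.9 and 39.2 CPM against 1.01 CPM at 4 hpf, 2.05 CPM at 5 hpf, then 3.19 and 3.02 CPM at 6 hpf. It was 3.73 ± 0.44 above the younger controls (adjusted p = 0.302 in the fit of 6 and 0.000978 in the fit of 14 libraries, limma). bcl3, a regulator of NF-kappaB, stood at 8.59 and 10.8 CPM against 0.505 to 0.914 CPM at 4 to 6 hpf. Neither gene overlapped any control.

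aplnrb, the second Apelin receptor gene, stood at 495 and 440 CPM, against 34.4 CPM at 4 hpf, 102 CPM at 5 hpf and 166 CPM in both 6 hpf controls. It was 3.72 ± 0.20 above the 4 hpf control (adjusted p = 0.000843, limma) and 2.19 ± 0.20 above the 5 hpf control (adjusted p = 0.00149, limma), where aplnra was level. irx7, an Iroquois factor of the neural plate, stood at 290.1 and 297 CPM against 70.8 to 98.5 CPM at 4 to 6 hpf. The Delta ligand dlb stood at 19.0 and 37.4 CPM, above 0.729 and 2.43 CPM in the younger controls, but the rs1a value lay below the 22.5 CPM of the rs1b control at 6 hpf. hist2h2l, a histone gene with near-identical copies between which reads may be split, stood at 87.1 and 84.4 CPM against 4.09 to 20.3 CPM, and its level is uncertain. NUPR2, a stress-response gene, stood at 72.0 and 93.6 CPM against 19.3 to 24.8 CPM at 4 to 6 hpf. At 3 hpf and before, however, controls held up to 59.9 CPM of it, so it was not 2-fold above all controls.

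Among further genes above all 7 controls, named after their values were seen, were patterning genes of later stages at low levels. hoxb5b stood at 7.48 and 9.79 CPM and hoxb1b at 4.53 and 5.57 CPM, both homeobox genes of hindbrain and trunk identity. hoxb5b was at most 0.962 CPM and hoxb1b at most 1.02 CPM in the 4 to 6 hpf controls. The homeobox genes nkx2.2b (6.92 and 7.08 CPM), nkx2.4b (4.06 and 4.97 CPM) and irx1a (8.91 and 7.14 CPM) and the hairy-related gene her12 (8.67 and 6.97 CPM) were each at or below 1.65 CPM in these controls. phlda2, a growth regulator imprinted in mouse, stood at 9.07 and 7.68 CPM against 0.0914 to 0.482 CPM, the gene with the lowest adjusted p against the 6 hpf controls among these (log2 difference 2.88, adjusted p = 9.17e-05 in the fit of 14 libraries, limma).

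**Figure D5:**
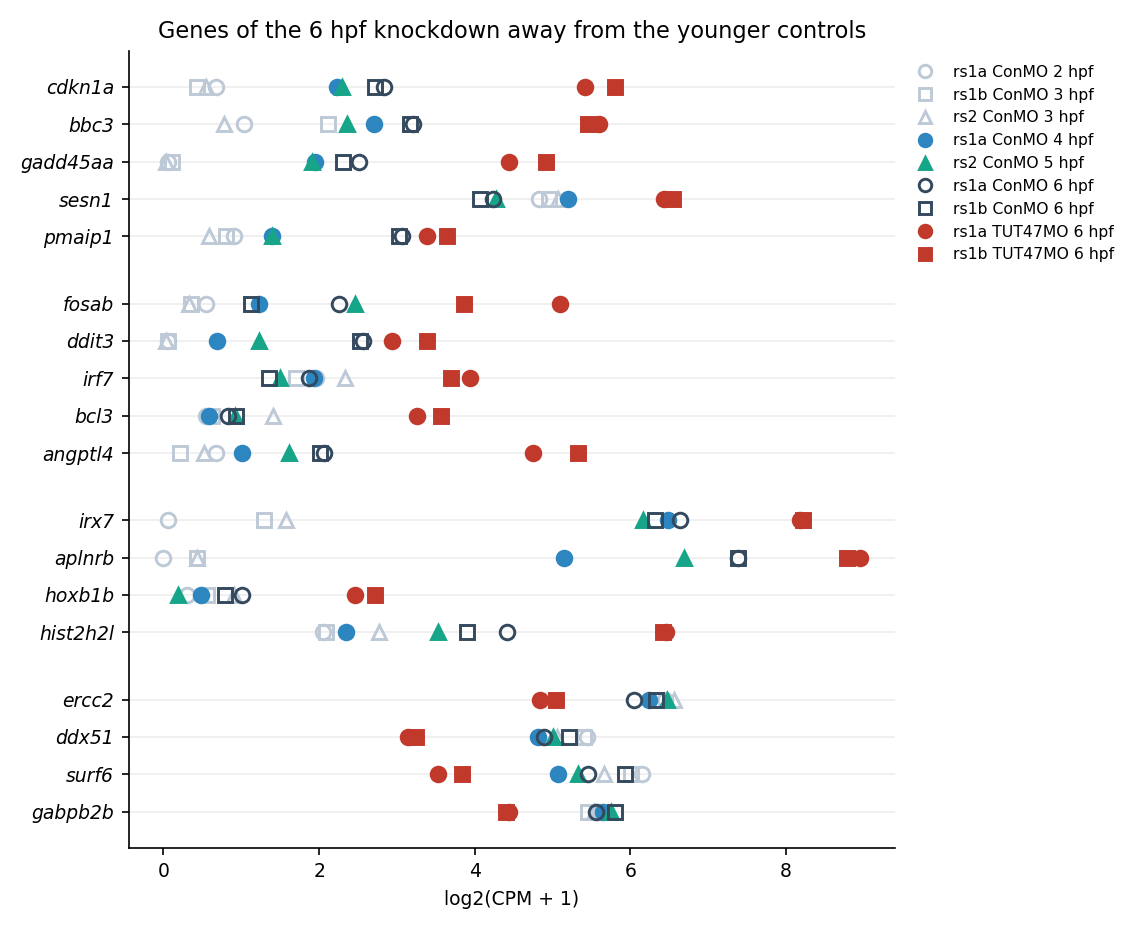
log2(CPM + 1) of 18 genes away from the younger controls, in the 7 ConMO libraries and the 2 TUT47MO libraries at 6 hpf (red, circle rs1a and square rs1b). The blocks hold genes of arrest and apoptosis, stress and signalling genes, patterning and other genes, and genes below the controls. The red symbols of cdkn1a lie to the right of all 7 controls and those of ercc2 to the left.

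The 10 named genes below the younger controls were surf2, ddx51, ercc2, arid4a, surf6, gabpb2b, znf1007, kiaa0101, fbxo5 and ucp2. ddx51, a helicase of ribosome biogenesis, stood at 7.80 and 8.49 CPM against 27.0 CPM at 4 hpf, 31.1 CPM at 5 hpf, then 28.6 and 35.9 CPM at 6 hpf. surf6, a nucleolar protein, stood at 10.5 and 13.3 CPM against 32.5 to 59.9 CPM. ercc2, the XPD helicase of transcription factor TFIIH and of nucleotide excision repair, stood at 27.5 and 32.1 CPM against 65.3 to 87.4 CPM, a difference from the younger controls of −1.41 ± 0.29 (adjusted p = 0.482 in the fit of 6 and 0.00451 in the fit of 14 libraries, limma). In the 4 to 6 hpf controls ddx51 and ercc2 varied by less than 1.5-fold, and neither overlapped the knockdown.

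gabpb2b, a subunit of the GABP transcription factor, was the steadiest of them, at 46.1 to 54.8 CPM in the 4 to 6 hpf controls and at 20.7 and 20.2 CPM in the knockdown (−1.28 ± 0.29, adjusted p = 0.551 in the fit of 6 and 0.0067 in the fit of 14 libraries, limma). fbxo5 (Emi1), the inhibitor of the anaphase-promoting complex, stood at 94.1 and 84.0 CPM against 180 to 248 CPM. kiaa0101, a partner of PCNA, stood at 22.8 and 28.9 CPM against 55.3 to 88.8 CPM. Both are genes of proliferating cells. In the single knockdowns at 6 hpf, which share controls with the double knockdown, ercc2 stood at 27.4 CPM in TUT7MO and 44.3 CPM in TUT4MO, fbxo5 at 68.1 and 203 CPM, and ddx51 at 9.06 and 6.53 CPM.

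A further 10 genes, 5 in each direction, were named for differing from the age-matched controls while passing the equivalence test to the younger ones. They passed both at unadjusted p under 0.05 in the fit of 6 libraries, where none passed adjustment. In the fit of 14 libraries the adjusted equivalence p of limma was under 0.05 for stx11a, bmp15, lmnb2 and prickle1a. It was 0.0886 for myo9aa, 0.0556 for lsm14b, 0.0568 for spata13, 0.143 for mnd1, 0.0645 for ccng2 and 0.0926 for pfn1. Those above the 6 hpf controls were maternal: stx11a, a syntaxin, stood at 32.8 and 33.3 CPM, against 37.1 CPM at 4 hpf, 22.0 CPM at 5 hpf, then 4.69 and 4.39 CPM at 6 hpf. It was 2.62 above the 6 hpf controls (adjusted p = 0.000217 in the fit of 14 libraries, limma) and within 2-fold of the younger ones (equivalence adjusted p = 0.0349, limma). bmp15, an oocyte growth factor, stood at 37.9 and 38.9 CPM between 59.6 CPM at 4 hpf and 24.9 CPM at 5 hpf. The others were myo9aa, lsm14b and spata13. Below the 6 hpf controls were lmnb2, mnd1, prickle1a, ccng2 and pfn1. lmnb2, a nuclear lamin, stood at 150 and 174 CPM between 119 CPM at 4 hpf and 227 CPM at 5 hpf, then 677 and 770 CPM at 6 hpf (equivalence to the younger controls, adjusted p = 0.035, limma). prickle1a, of planar cell polarity, stood at 19.2 and 18.8 CPM, near 23.6 and 25.7 CPM in the younger controls and far from 59.1 and 84.1 CPM at 6 hpf.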

How the data were processed

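RNA was isolated in TRIzol, given ERCC spike-ins and depleted of rRNA, and stranded libraries were sequenced in 76 nt paired reads, per the labels' protocols. The submitters' processing notes name STAR 2.5.3a, RSEM and GRCz10, without settings. For rs1b the authors deposited estimated counts. For rs1a and rs2 they deposited a scaled signal, in which each library's estimated counts carry 1 common multiplier whose origin no label states. Low values are spaced by that multiplier, which was read from them and divided out; 84.1 to 90.7% of values of at most 20 reads then fell within 0.02 of a whole number. Of 32660 entries, 555 (1.7%) carry no values and were left out.

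Reads were scaled by TMM over 20 libraries and filtered with filterByExpr at a minimum count of 10 (edgeR 4.0.16). Tests used limma 3.58.1 with a trend on log2(CPM + 1) and Benjamini-Hochberg adjustment at 0.05 (R 4.3.3). Because the unit is mixed, the count tests of edgeR and DESeq2 1.42.0, on rounded reads, are alternatives. Maternal genes (5 CPM or more in every early control) were cleared at a log2 change of −1 or lower and stable within 0.5 of 0; zygotic genes had under 1 CPM early and 5 CPM or more late.

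Members and the 22 gene lists (530 of 560 symbols in the table) were chosen with earlier results of these data known; lists overlap, and 1 list is not reported here. Named genes were the 10 highest and lowest log2 changes past the threshold with a mean of at least 5 CPM and no overlap, filled by smallest p; 5 and 5 matching genes; and up to 4 members of each list. Counts of the 2 libraries in each group differed beyond sampling noise, with chi-square over its degrees of freedom from 27.4 to 325. Symbols are those of the table, and 737 stand on more than 1 entry. Alternatives were other scalings, filters, pseudocounts, libraries and tests, the deposited values, a replicate block and each library left out.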

Additional observations from a re-analysis of the deposited data

Results flagged for a closer look

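A difference between groups was flagged for 4 named genes, whose knockdown effect at 6 hpf differed from that at 4 to 5 hpf in the fit of 14 libraries (limma interaction term). For angptl4 the log2 effect was 3.00 at 6 hpf and 0.0872 earlier, a difference of 2.92 (adjusted p = 0.0486). For stx11a it was 2.62 and 0.705, a difference of 1.92 (adjusted p = 0.0417). For mespaa it was −4.47 and −0.54, a difference of −3.93 (adjusted p = 0.0136, limma). For apoa1a it was −3.17 and −0.596, a difference of −2.57 (adjusted p = 0.0338, limma). In controls mespaa stood at only 0.617 CPM at 4 hpf and 3.36 CPM at 5 hpf, so it had little room to fall there. All 4 genes were named by rules that used the 6 hpf knockdown values, 1 side of this term. The share of all genes that passed it is not given, so the count is no result about these genes.

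Signals above the controls also appeared in a library outside the comparison, TUT7MO at 6 hpf. There cdkn1a stood at 58.8 CPM, angptl4 at 41.1 CPM, bbc3 at 46.0 CPM, bcl3 at 13.3 CPM, hist2h2l at 189 CPM, gadd45aa at 25.5 CPM, irx7 at 263 CPM and aplnrb at 498 CPM, each at least 2-fold above the highest control. NUPR2 (88.2 CPM) and dlb (30.6 CPM), also named by rule, were less than 2-fold above it. Of the 59 genes above all 7 controls in the double knockdown, 54 also were in TUT7MO (0.77% of all genes). In TUT4MO at 6 hpf 1 was (0.158% of all genes). In TUT47MO 0 were at 4 hpf and 2 at 5 hpf (0.034% and 0.266% of all genes). Each of these is 1 library, and TUT7MO has the same controls as the double knockdown. No group here holds 4 or more libraries, so single libraries could not be tested as outliers.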

How the results depend on the processing

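On the scale of all genes, the median difference of the knockdown from the younger controls was 0.03 by TMM, −0.127 by library totals and −0.551 with the deposited values as they stand. Against the 6 hpf controls it was 0.0973, 0.369 and 0.532, and for the 6 hpf against the younger controls −0.0206, −0.452 and −1.04. Directions of small differences therefore depend on the scaling. Genes called against the younger controls numbered 0 higher and 0 lower in the fit of 6 libraries. With 14 libraries they numbered 189 and 15, and with DESeq2 58 and 12. By library totals 5 were higher. Against the 6 hpf controls, where the fit of 6 also called 0, the fit of 14 libraries called 2900 and 2829, the 2 groups alone 4902 and 4526, DESeq2 1022 and 2071, and library totals 223 and 517. The 6 hpf against the younger controls gave 1148 and 1101 with 14 libraries, 329 and 369 with DESeq2, 134 and 40 by library totals, and 33 and 2401 with the deposited values. Genes within 2-fold of the younger controls numbered 4074 with 14 libraries, 9146 with a pseudocount of 5 and 10880 with no filter. In a fit of the 2 groups at 6 hpf alone with the set as a replicate block, 6514 genes were higher and 5803 lower than the 6 hpf controls. The rs1a minus rs1b differences of knockdown and control had a correlation of 0.606 across 17671 genes, over only 2 pairs. Against the younger controls the groups share only set rs1a, but over 14 libraries the sets are connected. With the set as a replicate block there, added after seeing the data, 245 genes were higher and 83 lower than the younger controls, 10050 were within 2-fold of them, 5257 were higher and 4277 lower than the 6 hpf controls, and 2914 rose and 3531 fell from the younger to the 6 hpf controls. That block turned the sign of etv5b (0.0414), slc40a1 (0.0584), h2afx (0.0145), mt-nd1 (0.0484), mt-nd5 (0.0178) and mt-atp6 (0.139), none of which passed.

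The numbers above and below all controls were 36 and 1 by library totals, 145 and 19 with a pseudocount of 0.1, and 17 and 3 with a pseudocount of 5. With TMM scaling on totals that leave out mitochondrial genes 22 were below. Genes at least 2-fold higher and lower than the younger controls without overlap were 269 and 632 by library totals. They were 1044 and 624 with a pseudocount of 0.1 and 142 and 149 with a pseudocount of 5. With TMM scaling on totals without mitochondrial genes 610 were lower.

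Class medians are given for rs1a against 4 hpf and rs1b against 5 hpf. For cleared genes they were −1.20 and 0.954 by library totals, −0.51 and 0.801 by median-of-ratios scaling, and −0.68 and 1.16 for genes cleared at −2 or lower. In rs1b they were 0.959 and 0.747 with pseudocounts of 0.1 and 5. For stable genes they were −0.69 and −0.27 by library totals, so that rs1a changed sign, 0.00305 and −0.097 by median-of-ratios and 0.0567 and 0.00493 with a pseudocount of 5. For zygotic genes they were 0.393 and −1.44 by library totals, 1.59 and −1.93 with a pseudocount of 0.1, 0.295 and −0.925 with a pseudocount of 5, and −1.64 in rs1b by median-of-ratios. Taking the other younger control for each set turned every sign: cleared 0.851 and −0.424, stable −0.00397 and 0.0606, zygotic −1.66 and 0.941. The signs thus follow the younger control taken, not the knockdown library.

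The percentages of genes higher and lower at 6 hpf that matched the younger control moved likewise. Placed in rs1a, they were 48.7 and 75.2 by library totals, 87.5 and 82.8 by median-of-ratios, 93.9 and 89.6 with a pseudocount of 5, 61.3 and 53.7 within 0.5, and 51.3 and 31.8 against the 5 hpf control. Placed in rs1b, they were 31.9 and 40.1 by library totals, 53.4 for the higher genes by median-of-ratios, 57.1 for them with a pseudocount of 5, 23.0 and 15.5 within 0.5, and 87.0 and 78.6 against the 4 hpf control. The median distance of the rs1a knockdown to 4 hpf was 0.735 and that of the rs1b knockdown to 5 hpf 0.773 by library totals. With a pseudocount of 5 the distances to 4 hpf were 0.230 and 0.249 and those to 5 hpf 0.397 and 0.411.

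Some named genes changed sign. With the deposited values these were zcchc11 (−0.38), ZCCHC6 (−0.40), dnd1 (−0.14), gra (−0.35) and tdrd1 (−0.039). sox32 was −0.67 by edgeR and −0.72 by DESeq2, against 1.13 by limma in the fit of 6 libraries. foxa3 was −0.043 by DESeq2, against 2.05 by limma.

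Leaving out 1 library at a time gave 0 to 2706 genes higher and 0 to 3140 lower than the younger controls, and 0 to 5759 within 2-fold of them. The 6 hpf against the younger controls gave 0 to 4954 higher and 0 to 4598 lower. Genes above all controls were 69 to 108, below all 11 to 34, and without overlap 629 to 2357 higher and 517 to 2881 lower. Leaving out 1 younger control turned genes with a 4 to 5 hpf gradient: ZCCHC6 ranged from −0.023 to 0.493, dnd1 from −0.042 to 0.992, tdrd1 from −0.596 to 1.77, cd82b from −0.191 to 2.40, lft2 from −1.47 to 0.445 and dkk1b from −0.026 to 3.68. The range was −0.179 to 3.09 for foxa2, −1.03 to 5.13 for foxa3, −3.08 to 0.835 for cdh6, −1.76 to 0.437 for sox17, −1.61 to 3.87 for sox32 and −0.041 to 3.58 for sp5a. It was −0.789 to 3.57 for szl, −0.355 to 4.42 for fgf8a, −2.61 to 0.536 for etv4, −1.79 to 0.455 for etv5b, −3.16 to 0.885 for fgf24 and −2.76 to 0.0378 for grhl3. It was −1.16 to 0.106 for apoa1a, −1.97 to 0.219 for hist2h3c and −2.14 to 0.576 for h2afx. Leaving out a knockdown library, mt-atp6 ranged from −1.52 to 0.0499. Other causes of these changes were not tested. The 4 and the 5 hpf control are 1 library each, from different sets, so hour and set cannot be told apart between them.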
